A study of Mus musculus with 28 samples.

Results

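Apold1, Cyr61, Ctgf, Ier2, Ier3 and Ier5 are 6 genes chosen by name from a table of 24391 gene symbols. The set is named after genes that blood vessel cells switch on early after a stimulus, but its members are not confined to vessel cells. Apold1 entered the set because its TRAP level differed between run and home cage mice in these same data, so that every run over home cage value in TRAP, and its own TRAP over lysate ratio, is given here as a description, without a test. The other 5 joined it as early response genes or vascular partners. All 6 passed the filter on low counts in each comparison.

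The libraries came from motor cortex of 14 mice of the genotype Cx3CR1-Cre/TRAPfl, in which Cre under Cx3cr1 control switches on a tagged ribosomal protein, in brain mainly in microglia and also in macrophages at the brain's borders. In TRAP (translating ribosome affinity purification) tagged ribosomes are pulled out of the lysate with the mRNA they carry. There were 4 groups of 7 libraries each: run TRAP, home cage TRAP, run lysate and home cage lysate, with 1 TRAP and 1 total lysate library per mouse. Run mice had exercised on a rotarod for 1 h, home cage mice were the baseline, and all mice carried both transgenes. The labels give no ages. By their labels each condition held 4 females and 3 males, with 4 mice in cohort 1 and 3 in cohort 2, which the labels also give as batch 1 and batch 2.

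Vascular early response genes are transcribed within minutes of shear stress, growth factors, ischaemia or neural activity, and their mRNAs are short lived. Apold1, also known as the vascular early response gene, encodes a membrane-associated protein of endothelial cells. Cyr61 (now Ccn1) and Ctgf (now Ccn2) encode secreted matricellular proteins that bind integrins and are textbook targets of the Hippo pathway effectors YAP and TEAD. In cortex Ctgf is also a marker of layer 6b neurons. Ier2, Ier3 and Ier5 are immediate early genes of many cell types: Ier2 encodes a nuclear protein, Ier3 a stress-induced regulator of cell survival and ERK signalling, and Ier5 a regulator of the heat shock factor HSF1.

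On GRCm38 the 2-exon gene Apold1 spans chromosome 6 134981718 to 134986836 on the plus strand. Cyr61 lies on chromosome 3 at 145646976 to 145649981 (minus strand) and Ctgf on chromosome 10 at 24595442 to 24598683 (plus strand). In Ctgf, 665 exon bases are shared with Gm15270 on the opposite strand. Reads of Ctgf and Gm15270 cannot be told apart there without strand, and none of the labels or headers states how strand was handled in counting. The single-exon genes Ier2 and Ier5 lie on chromosome 8 at 84661331 to 84662852 and on chromosome 1 at 155096361 to 155099636, both on the minus strand. Ier3 lies on chromosome 17 at 35821684 to 35822923 on the plus strand.

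RefSeq promoter windows (GRCm38.p6, the 250 bases before the start) matched Apold1, Cyr61, Ier3 and Ier5, and did not match Ctgf and Ier2. The RefSeq start of Apold1, at 134982001, lies within the first GENCODE exon, which starts upstream of it at the gene start given above. All 250 bases of its window are therefore exon in GENCODE, the stretch shown included, and so are 29 bases of the Ier3 window, which are not shown. Stretches close to the start are shown because Apold1 and Cyr61 are the 2 members with the largest folds of run over home cage. Capitals mark matches on either strand to TATAAA (the TATA box), TGACG (the core of a cAMP response element), CCAAT (read by NF-Y), GGGCGG (read by Sp1) and GGAATG (read by TEAD), the sequences run 5′ to 3′ on the gene's strand, and positions count back from the RefSeq start.
Apold1, chr6:134981947-134981976, plus strand, bases -54 to -25: gcCGTCATTGGctcctgggagcTATAAAgt
Cyr61, chr3:145649986-145650095, minus strand, bases -110 to -1: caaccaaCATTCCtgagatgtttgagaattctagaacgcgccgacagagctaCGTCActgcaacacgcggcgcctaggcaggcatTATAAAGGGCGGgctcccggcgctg
Ier3, chr17:35821603-35821683, plus strand, bases -110 to -30: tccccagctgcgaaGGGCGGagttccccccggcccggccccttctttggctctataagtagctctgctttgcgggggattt
Ier5, chr1:155099637-155099746, minus strand, bases -110 to -1: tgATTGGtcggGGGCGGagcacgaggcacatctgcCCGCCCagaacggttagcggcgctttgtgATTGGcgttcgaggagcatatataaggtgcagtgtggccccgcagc

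Apold1 and Cyr61 both held TATAAA, at -32 and -25, and TGACG on the opposite strand (read as CGTCA), from -52 and -58. In Apold1 the TGACG and CCAAT matches, both on the opposite strand, share 1 base. Neither the letters TATAAA nor TGACG matched in the windows of Ier3 and Ier5, which both held CCAAT as well as GGGCGG. Only exact letters were searched, so other forms of the TATA box or of the cAMP response element could not show. The TATA box letters occurred in 12.4% of 32851 RefSeq windows of this length, TGACG in 17.8%, CCAAT in 33.8%, GGGCGG in 32.7% and GGAATG in 12.6%. The AP-1 motif TGANTCA, present in 6.75% of windows, and the CArG box, present in 1.47%, matched in none of the 4. These letter matches are a description of the windows only.

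Total counts ran from 70090518 to 241381845 per library, so that even the scarcest member, Cyr61, had 174 counts in its lowest library. Microglia markers checked the TRAP label: 12 of 12 were higher in TRAP than in lysate in run mice and in home cage mice, with median log2 folds of 6.53 and 6.62. Endothelial markers were also higher in TRAP, 15 of 16 in each condition. The level of 4 Y-linked genes went against the labelled sex in 4 libraries, both libraries of 2 run mice of cohort 2 (Male1 and Female2). The member fits of TRAP over lysate, of run over home cage and of the interaction terms were recomputed without these 2 mice. Levels, ratios by mouse, cohort differences, folds within a cohort, list medians, summed levels and correlations were not. Nothing in the labels says more of the mice than their genotype, condition, sex, number and cohort (also given as batch). The p-values measure the spread between the libraries as labelled.

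Apold1 was the member with the clearest difference in level between run and home cage TRAP libraries. Levels are CPM, read counts scaled to library size, here with TMM factors over all 28 libraries. In run TRAP the lowest, median and highest libraries had 17.7, 20.9 and 23.5 CPM, against 5.77, 8.64 and 12.8 CPM in home cage TRAP. In run lysate they had 5.87, 7.62 and 8.92 CPM, against 3.83, 5.54 and 6.19 CPM in home cage lysate. The TRAP groups did not overlap, while in lysate the lowest run library fell within the range of the home cage libraries. The means were 20.9 ± 2.23 CPM in run TRAP and 8.49 ± 2.31 CPM in home cage TRAP, and 7.38 ± 1.03 CPM in run lysate and 5.39 ± 0.779 CPM in home cage lysate (SD, n = 7 each).

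Cyr61 had a wide spread in TRAP and a narrower one in lysate. The lowest, median and highest run TRAP libraries had 5.23, 7.70 and 21.5 CPM, against 1.54, 3.20 and 7.75 CPM in home cage TRAP. In run lysate they had 6.59, 7.76 and 11.8 CPM, against 3.23, 4.91 and 7.12 CPM in home cage lysate. The TRAP overlap came from 1 home cage library, Male1 of cohort 2, which stood above 4 of the 7 run libraries; the other 6 home cage libraries were below every run library. In lysate that same mouse was again the highest home cage animal, and 2 of the 7 run libraries were below it. The highest Cyr61 library in both fractions was that labelled Female2 of cohort 2, a run mouse whose Y-linked counts go against its label.

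Ctgf, the other CCN gene, was more abundant in lysate than in TRAP and similar between conditions. Its lowest, median and highest levels were 16.9, 21.6 and 28.0 CPM in run TRAP, against 15.7, 21.5 and 34.4 CPM in home cage TRAP. In run lysate they were 29.9, 34.8 and 49.6 CPM, against 31.7, 37.8 and 65.7 CPM in home cage lysate. Run and home cage ranges overlapped over most of their length in both fractions. In run mice every TRAP library was below every lysate library, whereas in home cage mice the fractions overlapped. The share of all genes with such a gap between fractions was not counted, and nothing is read from it.

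The Ier genes showed no separation of all 7 run from all 7 home cage libraries, and their spread followed cohort. Ier5 was by far the most abundant member, at 126 ± 38.2 CPM in run TRAP and 132 ± 50.5 CPM in home cage TRAP, and 104 ± 29.8 CPM in run lysate and 103 ± 27.9 CPM in home cage lysate. Ier2 had 18.6 ± 10.6 CPM in run TRAP and 17.1 ± 8.40 CPM in home cage TRAP, and 11.8 ± 5.23 CPM in run lysate and 11.0 ± 5.04 CPM in home cage lysate. Ier3 had 6.38 ± 1.90 CPM in run TRAP and 7.55 ± 2.33 CPM in home cage TRAP, and 7.65 ± 2.22 CPM in run lysate and 6.64 ± 2.02 CPM in home cage lysate (SD, n = 7 each). In each pair the condition means lay closer together than 1 SD, but this SD is over both cohorts and holds the difference between them. Within cohort 2 all 3 run lysate libraries of Ier3 lay above all 3 home cage ones. There it had 9.92 ± 0.593 CPM in run and 8.51 ± 0.615 CPM in home cage lysate (SD, n = 3 each). In cohort 1 lysate the Ier3 libraries of the conditions overlapped. The share of all genes separated within cohort 2 alone was not counted.

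**Figure D1:**
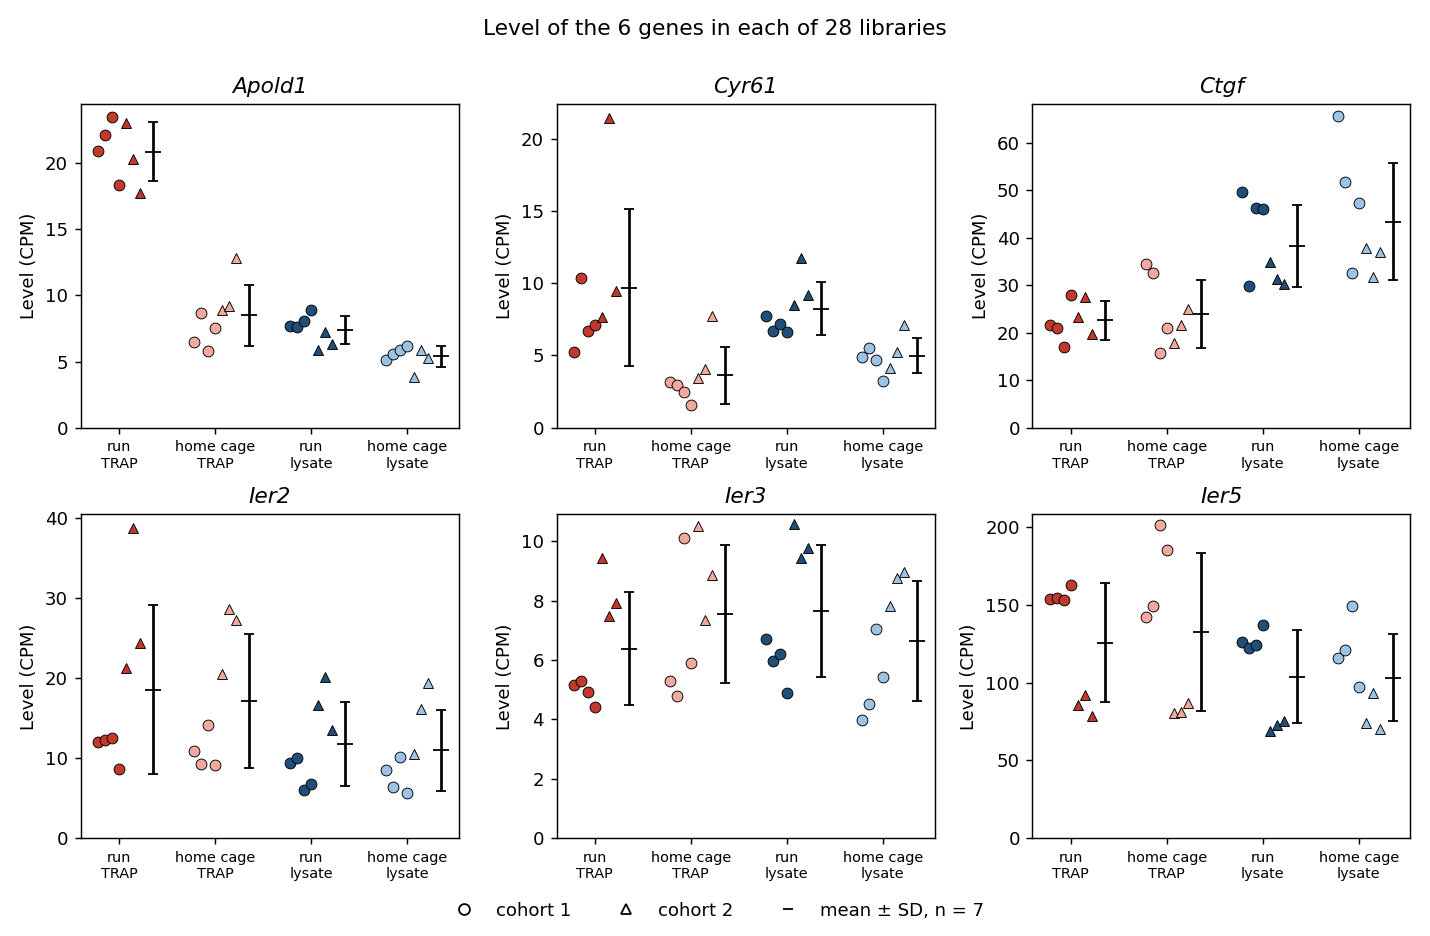
Level of each gene in CPM (vertical axis, from 0, a separate scale for each panel) in every library of the 4 groups. Circles are cohort 1, triangles cohort 2, and the bar beside each group is the mean ± SD of 7 libraries. All 7 run TRAP libraries of Apold1 lie above all 7 home cage TRAP libraries, and for Ier2 and Ier5 the split within a group is by cohort.

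Per kilobase of exon, which allows genes to be compared with each other, the order in home cage lysate was Ier5 at 31.5 ± 8.52, Ctgf at 15.2 ± 4.31, Ier2 at 7.21 ± 3.31, Ier3 at 5.87 ± 1.79, Cyr61 at 2.46 ± 0.599 and Apold1 at 1.51 ± 0.218 CPM per kb (SD, n = 7). Of neighbours in this order only Ier2 and Ier3 differed by less than their SD. In run TRAP the lower part of the order was tighter: Ctgf at 7.90 ± 1.42, Apold1 at 5.85 ± 0.626 and Ier3 at 5.64 ± 1.68 CPM per kb (SD, n = 7). Cyr61 followed at a mean of 4.81 CPM per kb, with a coefficient of variation of 56.1%. There Apold1, Ier3 and Cyr61 could not be ordered beyond their spread. In home cage TRAP Apold1 stood at 2.38 ± 0.648 CPM per kb, below Ier3 at 6.68 ± 2.06 and near Cyr61 at 1.80 ± 0.980.

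Cohort separated Ier2 and Ier5 within every group, in opposite directions. Ier2 was higher in cohort 2, by a mean log2 difference of 1.22 in TRAP and 0.98 in lysate. The lowest cohort 2 library stood above the highest cohort 1 library in all 4 groups, with run TRAP at 21.3 to 38.8 CPM in cohort 2 and 8.61 to 12.5 CPM in cohort 1. For Ier5 the difference was -0.94 in TRAP and -0.70 in lysate, and run TRAP held 78.3 to 91.8 CPM in cohort 2 and 153 to 163 CPM in cohort 1. Ier3 was 0.57 higher in cohort 2 in TRAP and 0.69 in lysate, with some overlap among home cage TRAP libraries. Cyr61 was also higher in cohort 2, by 0.75 in TRAP and 0.34 in lysate. Its home cage TRAP libraries held 3.46 to 7.75 CPM in cohort 2 and 1.54 to 3.20 CPM in cohort 1. The cohorts of Cyr61 were apart in run lysate too, but overlapped in run TRAP and home cage lysate. Apold1 differed by 0.22 in TRAP and -0.24 in lysate, and Ctgf by -0.05 and -0.41. Cohort 2 is a batch by the labels and its part in these levels cannot be told apart from mouse or library differences. The 60.9% GC of Ier2 lay at the 96.9th percentile of tested genes, while Ier5 at 52.3% and Ier3 at 54.4% lay closer to the median of 49.8%.

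Relative to the lysate of the same mice, 3 of the 6 members were higher in TRAP and 1 was lower in run mice, and the same 4 genes were called in the same directions in home cage mice. Apold1 is 1 of the 3, and its call is no independent evidence, since its TRAP libraries chose it. The main fit had no term for the mouse, so the 2 libraries of a mouse were not paired in these calls. Calls were common over the whole table: of 16880 genes tested, 30.1% were higher and 32.1% lower in TRAP in run mice, and 30.7% were higher and 33.8% lower in home cage mice. The median log2 fold of the 6 was 0.23 in run mice and 0.26 in home cage mice, against -0.17 and -0.19 over all genes tested. Scaling to library totals without TMM moved the all-gene medians to -0.70 and -0.67, and the count of members higher in TRAP then fell to 1 in run mice and 0 in home cage mice. Calls of all genes higher in TRAP fell too, from 5083 to 3387 of 16880 in run mice and from 5177 to 3655 in home cage mice.

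Apold1 was the member highest over lysate in run mice. Both its run and its home cage TRAP libraries belong to the contrast that chose it, so its TRAP over lysate values are given without a p and support nothing. In run mice its TRAP level was 2.83-fold that of lysate (log2 fold 1.50 ± 0.16 SE, n = 7 mice), and in home cage mice it was 1.58-fold (log2 fold 0.66 ± 0.16). Mouse by mouse the ratio was above 1 in 7 of 7 run mice, between 2.06 and 3.93 with a median of 2.81, and in 6 of 7 home cage mice, between 0.980 and 2.42 with a median of 1.56. With library totals the log2 folds were 0.97 in run mice and 0.17 in home cage mice. The home cage value was 0.32 in cohort 1 alone and 1.08 in cohort 2 alone.

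Ctgf fell below lysate in both conditions, with TRAP 1.67-fold lower in run mice (log2 fold -0.74 ± 0.17, edgeR adjusted p = 5.29e-04) and 1.80-fold lower in home cage mice (-0.85 ± 0.17, adjusted p = 9.90e-05). Its ratio was below 1 in all 14 mice, at 0.366 to 0.884 in run mice and 0.442 to 0.678 in home cage mice. How many of all genes lay on 1 side of lysate in every mouse was not counted, here or for the genes below. The call of Ctgf held under every alternative run. Layer 6b neuron markers lay on the same side, with 2 of 3 lower in TRAP in both conditions, among them Cplx3 at -1.47 ± 0.17 in run mice and -1.61 ± 0.18 in home cage mice. Fibroblast and meningeal markers had 2 of 8 lower in TRAP and none higher. Other markers were also lower in both conditions: 10 of 10 of neurons, 7 of 8 of oligodendrocytes and 6 of 8 of astrocytes. Of all genes tested 32.1% were lower in TRAP in run mice and 33.8% in home cage mice. The part of these cells in the level of Ctgf was not tested.

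Cyr61 had no call in either condition in the main fit. Its log2 fold over lysate was 0.20 ± 0.24 in run mice (edgeR adjusted p = 0.480) and -0.53 ± 0.24 in home cage mice (adjusted p = 0.0544). Its ratio ran from 0.674 to 1.82 in run mice, above 1 in 4 of 7, and from 0.479 to 1.09 in home cage mice, above 1 in 1 of 7. The home cage value sat at the threshold: with the mouse as a replicate block it was -0.57 (edgeR adjusted p = 0.0215), which is a call, as it was with DESeq2 (-0.56, adjusted p = 0.0360) and without the 2 mice (-0.57, adjusted p = 0.0381). Leaving out Male1 of cohort 2, the high home cage library, gave -0.68 (edgeR adjusted p = 0.0158), and leaving out the run mice Female1 or Female2 of cohort 2 gave -0.54 (adjusted p = 0.0490) and -0.51 (adjusted p = 0.0471). The run value changed sign without the 2 mice, to -0.01, and with library totals, to -0.35.

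Ier2 was higher in TRAP in both conditions, 0.60 ± 0.18 in run mice (edgeR adjusted p = 0.00415) and 0.60 ± 0.18 in home cage mice (adjusted p = 0.00446). Its ratio was above 1 in all 14 mice, at 1.23 to 2.07 in run mice and 1.28 to 1.95 in home cage mice. Without the 2 mice the run value was 0.43 (adjusted p = 0.0746), and with library totals the values were 0.05 in run mice and 0.11 in home cage mice, neither called. Without a cohort term both values were larger but uncalled (0.65 in run mice and 0.64 in home cage mice, adjusted p = 0.145 each), as were those of cohort 1 alone (0.49 in each, adjusted p = 0.0984 in run mice and 0.0983 in home cage mice). Ier5 was slightly higher in TRAP with TMM scaling, 0.27 ± 0.10 in run mice (edgeR adjusted p = 0.0244) and 0.31 ± 0.10 in home cage mice (adjusted p = 0.0107), but with library totals its sign turned, to -0.26 and -0.18. The Ier5 call in run mice was also lost without the 2 mice (0.26, adjusted p = 0.0905) and without home cage replicate Female2 of cohort 1 (0.19, adjusted p = 0.123). It was lost by a narrow margin without any 1 of the run mice Female1 and Female2 of cohort 2 and Female2 and Male1 of cohort 1, with values of 0.26 and edgeR adjusted p from 0.0502 to 0.0571. In home cage mice the call was lost without Male2 (0.21, adjusted p = 0.0822) or Female2 (0.25, adjusted p = 0.0625) of cohort 1.

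Ier3 was not called, at -0.26 ± 0.17 in run mice (edgeR adjusted p = 0.173) and 0.21 ± 0.17 in home cage mice (adjusted p = 0.264). Its ratios were nonetheless narrow in run mice, between 0.769 and 0.907 and below 1 in all 7, whereas home cage ratios ran from 0.840 to 1.44 and were above 1 in 5 of 7. With library totals the run value was -0.80 (edgeR adjusted p = 1.70e-04) and the home cage value turned to -0.28 (adjusted p = 0.149).

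**Figure D2:**
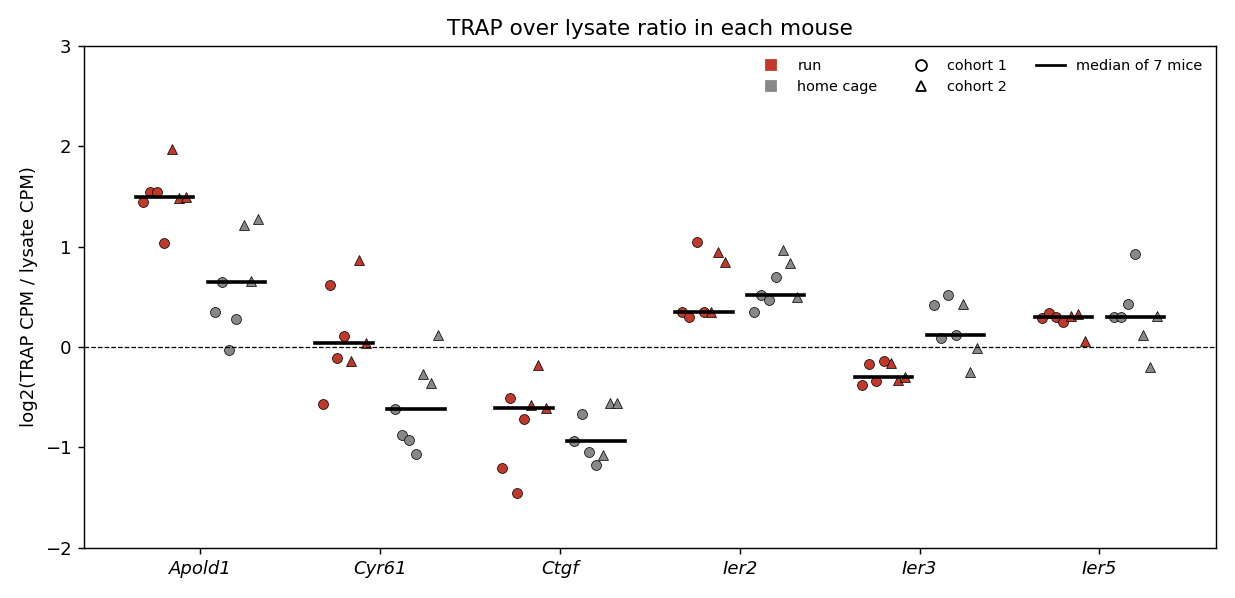
Log2 ratio of TRAP CPM to lysate CPM in each mouse, with run mice in red to the left of home cage mice in grey, circles for cohort 1, triangles for cohort 2 and a bar at the median of 7 mice; the dashed line marks equal levels. All 7 run mice lie above 0 for Apold1, all 14 mice lie below 0 for Ctgf and above 0 for Ier2, and all 7 run mice lie below 0 for Ier3.

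In total lysate, which the choice of Apold1 did not use, no member passed the adjusted threshold between run and home cage mice. The lysate libraries came from the same 14 mice as the TRAP libraries, so they are no independent sample of mice. The background was as sparse, with 5 of 16522 genes higher (0.0303%) and 0 lower by edgeR, against 1206 genes at an unadjusted p under 0.05. Of the 6 members 2 had an unadjusted p under 0.05, Apold1 and Cyr61, and DESeq2 called 1, Cyr61, among 28 genes higher and 12 lower. Each was a difference in bulk tissue, in which more cells of a type and more RNA per cell cannot be told apart.

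Cyr61 had the larger of the lysate differences, 0.72 ± 0.15 (1.65-fold, edgeR adjusted p = 0.157, n = 7 each), and the DESeq2 value was 0.72 with an adjusted p of 0.00693. The edgeR adjusted p ran from 0.101 to 0.523 when 1 mouse at a time was left out, and was 0.419 with a replicate block. Within cohort 1 the value was 0.63 ± 0.20, and within cohort 2 0.84 ± 0.23. Every run lysate library was above every home cage lysate library of its own cohort, in both cohorts, for Cyr61 and for Apold1. Over all genes tested in lysate 0.291% showed that separation. No member had all 7 run lysate libraries above all 7 home cage ones, as 0.0363% of genes did. Without the 2 mice Cyr61 stood at 0.63 (edgeR adjusted p = 0.821).

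Apold1 was 1.37-fold higher in run than in home cage lysate, a log2 difference of 0.45 ± 0.12 that was not called (edgeR adjusted p = 0.484; DESeq2 adjusted p = 0.0821). It was 0.51 ± 0.17 in cohort 1 and 0.38 ± 0.19 in cohort 2, and 0.44 without the 2 mice (edgeR adjusted p = 0.854). By size of fold 4.81% of tested genes lay above Apold1 and 2.48% above Cyr61. The other 4 members had smaller differences: Ier3 at 0.20 ± 0.13 (edgeR adjusted p = 0.732), Ier2 at 0.10 ± 0.17 (0.913), Ier5 at -0.01 ± 0.10 (0.988) and Ctgf at -0.17 ± 0.13 (0.771). The median of the 6 was 0.15, with 4 positive, against 0.00 over all genes.

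Whether the lysate difference itself varied by cohort or sex was tested with interaction terms, and no member was called. For cohort 2 minus cohort 1 the member values ran from -0.20 ± 0.20 in Ier5 to 0.21 ± 0.31 in Cyr61 (edgeR adjusted p = 0.9998 for each of the 6), and no gene of 16522 was called, with 371 at an unadjusted p under 0.05. By labelled sex, females minus males, 5.55% of genes were called higher and 1.26% lower. Ier2 came closest among the members, at 0.80 ± 0.29 (edgeR adjusted p = 0.107; 0.80 without the 2 mice, adjusted p = 0.239), followed by Ier3 at 0.49 ± 0.24 (0.236). For Apold1 the sex difference was 0.06 ± 0.25 (0.904), and -0.06 without the 2 mice.

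In TRAP, where these values chose Apold1 and carry no test, Apold1 and Cyr61 stood apart from the other members. The log2 fold of run over home cage was 1.33 ± 0.16 for Apold1 (2.51-fold) and 1.46 ± 0.28 for Cyr61 (2.75-fold). Apold1 was 1.60 ± 0.20 in cohort 1, where the run and home cage means were 21.2 and 7.11 CPM, and 0.97 ± 0.23 in cohort 2, where they were 20.4 and 10.3 CPM. The gap between cohorts thus lay in the home cage libraries. Cyr61 was 1.56 ± 0.38 in cohort 1 and 1.33 ± 0.43 in cohort 2. Its run libraries were all above the home cage libraries of cohort 1, but not of cohort 2.

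Of 15644 genes tested in TRAP 0.0384% were called higher, and 0.0511% had all 7 run libraries above all 7 home cage libraries, which among the members only Apold1 did; the choice of Apold1 rests on this contrast and nothing is read from the share. Without the 2 mice the values were 1.47 for Apold1 and 1.30 for Cyr61. The remaining members were at 0.10 ± 0.17 (Ier2), -0.05 ± 0.11 (Ier5), -0.07 ± 0.18 (Ctgf) and -0.28 ± 0.21 (Ier3). The median of the 6 was 0.02, with 3 positive, against 0.00 over all genes.

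Set against each other, the TRAP differences of Apold1 and Cyr61 were larger than the lysate differences. The run effect in TRAP minus that in lysate was 0.84 ± 0.22 for Apold1 and 0.73 ± 0.34 for Cyr61, and it was -0.48 ± 0.24 for Ier3. It was 0.11 ± 0.24 for Ctgf, 0.01 ± 0.25 for Ier2 and -0.04 ± 0.15 for Ier5. These differences contain the contrast that chose Apold1 and were not tested. Without the 2 mice they were 0.86 for Apold1, 0.56 for Cyr61 and -0.45 for Ier3. In cohort 2 alone the value of Apold1 was 0.56.

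**Figure D3:**
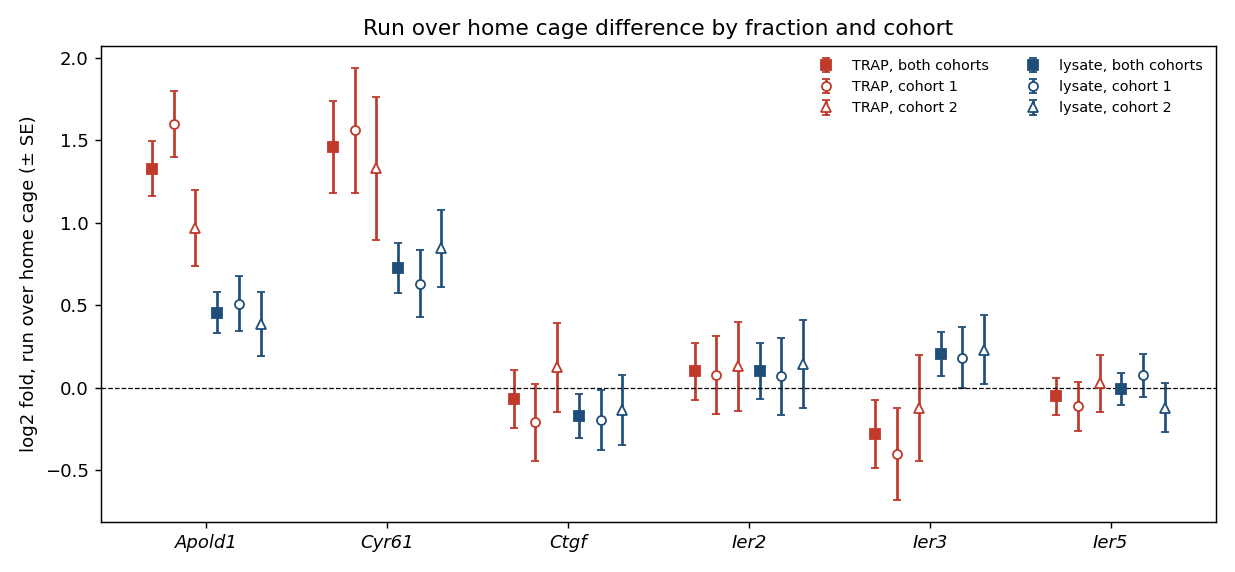
Log2 fold of run over home cage (± SE) for each gene, in TRAP (red) and total lysate (blue); squares are both cohorts together (7 mice a condition), circles cohort 1 and triangles cohort 2. Apold1 and Cyr61 are above 0 in both fractions and both cohorts and larger in TRAP than in lysate. Ctgf, Ier2 and Ier5 lie between -0.17 and 0.10 in both fractions over both cohorts, and Ier3 is at -0.28 in TRAP and 0.20 in lysate.

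Apold1 and Cyr61 were also compared with the genes of the vessels themselves. The 16 endothelial markers had a median run over home cage log2 fold of -0.33 in TRAP, with 1 positive, and -0.37 in lysate, with 3 positive, and none was called in lysate. Their summed level was 321 to 740 CPM in run TRAP and 268 to 940 CPM in home cage TRAP, and 148 to 200 CPM in run lysate and 163 to 310 CPM in home cage lysate. The ranges overlapped in both fractions, and no marker of the list was at 0 throughout a group. The endothelial signal thus lay lower in run mice by its medians while Apold1 and Cyr61 lay higher. In TRAP over lysate the markers had medians of 1.88 in run mice and 1.93 in home cage mice, among them in run mice Pecam1 (3.03 ± 0.23), an adhesion molecule of endothelial junctions, and Cldn5 (2.62 ± 0.30), a tight junction protein of the blood-brain barrier. Apold1 lay below the endothelial median in both conditions, at 1.50 in run mice and 0.66 in home cage mice. Mural markers, of pericytes and smooth muscle, had 5 of 12 higher in TRAP in run mice and 6 of 12 in home cage mice, and medians of run over home cage of -0.38 in TRAP and -0.04 in lysate. The part of vascular cells in the TRAP levels of the 6 genes was not tested.

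Other genes that endothelium switches on early or under flow gave no common direction. Of 15 on the list 14 were tested, 7 were positive in lysate and 7 in TRAP, the medians were 0.02 and 0.01, and 0 were called in lysate. The flow-induced transcription factors Klf2 and Klf4 were at 0.36 ± 0.22 and 0.49 ± 0.28 in lysate (edgeR adjusted p = 0.716 and 0.706), and at 0.29 ± 0.20 and 1.01 ± 0.19 in TRAP. Over lysate both were enriched in run mice (2.38 ± 0.21 for Klf2 and 3.69 ± 0.24 for Klf4), and Icam1 of the same list lay above both. Of the 14 tested, 7 were called higher in TRAP in run mice and 2 lower, so the list had no single direction there either. Over all genes tested 30.1% were higher and 32.1% lower in run mice. On VEGF and angiopoietin signalling 0 of 12 were called in lysate, with a median of -0.15. Klf2 and Klf4 were picked for mention in the run comparison after their values were seen.

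YAP and TEAD targets other than the CCN genes showed no common direction. Of 20 listed 19 were tested, with 0 called in lysate, 6 positive and a median of -0.07, and 10 positive in TRAP with a median of 0.05. Components of the Hippo pathway had 0 of 14 called in lysate and a median of -0.12, and SRF and MRTF factors, which drive CArG box genes, 0 of 6 and -0.02. Within the CCN family itself Nov (Ccn3) was at -0.53 ± 0.16 in lysate (edgeR adjusted p = 0.548), Wisp1 at 0.09 ± 0.18 and Ctgf at -0.17 ± 0.13, against 0.72 ± 0.15 for Cyr61. Over lysate Nov was lower in TRAP, at -1.26 ± 0.22 in run mice and -1.80 ± 0.23 in home cage mice, as Ctgf was.

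Immediate early genes outside the 6 had the same sign as Apold1 and Cyr61 in most cases, without a call. Of 22 genes 19 were positive in lysate, with a median of 0.42 and 0 called, and 18 were positive in TRAP, with a median of 0.44. Over all genes tested 50.4% were positive in lysate and 50.2% in TRAP. The largest in lysate were Atf3, a stress-induced transcription factor (1.80 ± 0.33, edgeR adjusted p = 0.0828), Maff (1.31 ± 0.59, 0.678) and Dusp5, a phosphatase of ERK (1.01 ± 0.22, 0.203), chosen for mention after their values were seen. Ier3ip1 and Ier5l, which carry the Ier name, were uncalled in lysate and had a median of 0.11. Ier2, Ier3 and Ier5, at 0.10, 0.20 and -0.01 in lysate, lay below the median of the other immediate early genes.

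**Figure D4:**
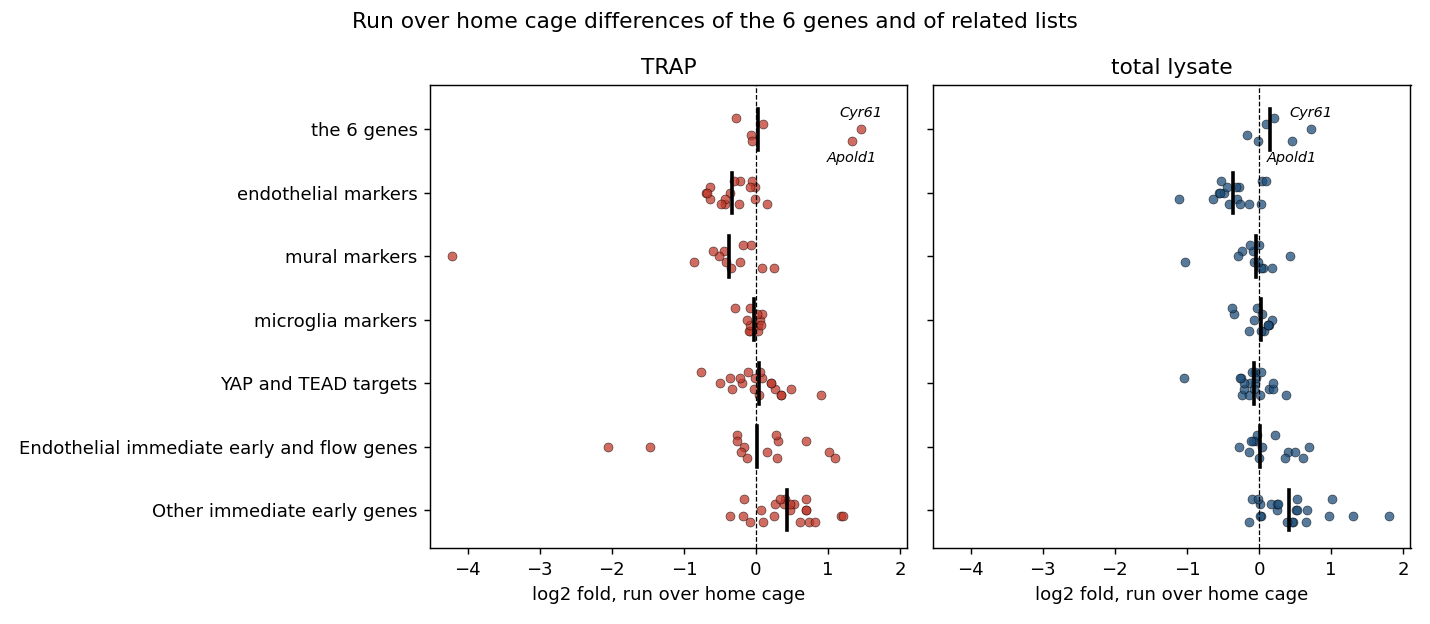
Log2 fold of run over home cage for each gene (point) of the 6 and of 6 lists, in TRAP (left) and total lysate (right), with a bar at the list's median; vertical offsets only separate points. Apold1 and Cyr61 lie right of every endothelial marker in both panels, whose medians are -0.33 and -0.37, and immediate early genes lie mostly to the right of 0.

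The genes whose TRAP level varied most like that of Apold1 over the 14 TRAP libraries, after cohort means were subtracted, were Tsc22d3 (Pearson r 0.94), Rgs1 (0.91), Ddit4 (0.89), Tagap (0.88) and Mycl (0.88), out of 12353 ranked. In lysate they were Gnb1 (0.88), Gem (0.88), Nol10 (0.85), Prosc (0.83) and Herpud1 (0.83), out of 12703, and no gene was among the 5 in both fractions. Gem, a small GTPase, was at 1.48 ± 0.24 in run over home cage lysate. These r values follow the condition as well as the libraries and are descriptions.

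How the members varied together was examined in the same way. Cyr61 followed Apold1 with r = 0.83 in TRAP and 0.76 in lysate (14 libraries each, cohort means subtracted). After condition means were subtracted too, r was 0.25 and 0.27, so that the likeness lay mostly in the shared difference between conditions. Among the Ier genes Ier3 and Ier5 had r = 0.71 in TRAP after both were subtracted, but 0.27 in lysate. In TRAP the summed endothelial markers had r = 0.81 with Ier3, 0.72 with Ier5 and -0.75 with Ctgf, against -0.29 with Apold1 and -0.20 with Cyr61. In lysate these pairs did not repeat, at -0.35 for Ier3, 0.37 for Ier5 and 0.19 for Ctgf. Nor were they particular to endothelial markers in TRAP. There Ier3 had r = 0.69 with border macrophage and 0.57 with microglia markers. Mural markers had r = 0.71 with Ier5 and -0.58 with Ctgf. The summed microglia markers had r = 0.78 with Ier2 in TRAP and 0.53 in lysate. The points of each correlation share their library, its depth and its scaling, and the part of these in r was not tested.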

How the data were processed

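Raw counts per gene symbol, as deposited by the authors, were used for 28 libraries of 14 mice (0 columns belonged to other samples). Per the labels, poly(A) RNA was extracted with an RNeasy kit and made into Nextera XT libraries. The build GRCm38 stands in the submitters' processing notes, with DESeq2, featureCounts and STAR 2.7.7a as tools. For annotation, strand setting and multi-mapped reads the setting was not given in the sources used here. Columns without a cohort mark were taken as cohort 1.

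The quasi-likelihood F test of edgeR 4.0.16 (R 4.3.3) was used with TMM, filterByExpr and Benjamini-Hochberg adjustment over all genes at 5%. Each fraction had its own fit of run against home cage (14 libraries, cohort as covariate). TRAP was set against lysate in a fit over all 28 libraries, with cohort as covariate, no term for the mouse and 1 shared estimate of the spread. Scripts were tested on simulated data. Log2 ratios per mouse used CPM with nothing added. For the ranking of genes like Apold1, 0.5 was added to CPM before the log2. The CPM shown were scaled over all 28 libraries, whereas folds of run over home cage used scaling within a fraction. GENCODE M21 gave exon length and GC content, and RefSeq the promoters.

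The members and lists were chosen with earlier results of these data known. Genes were named by rule: the 6 members, up to 3 called genes of a list with the largest fold among those whose mean log2 CPM was 1 or more, and the 5 genes most like Apold1 in each fraction. Outside it, Klf2, Klf4, Atf3, Maff, Dusp5, Nov, Wisp1 and Gem were named in run over home cage after their values were seen. Alternatives were RLE scaling, library totals, no filter, DESeq2 1.42.0, limma 3.58.1 (voom), no cohort term, each cohort alone, without the 2 mice whose Y-linked counts (threshold 5 CPM) went against their labels, a replicate block, and each mouse left out. Library pairs of a group differed by a chi-square of at least 69.6 per degree of freedom, so none was a duplicate. The 2 libraries of a mouse are paired by the titles; the correlation of their deviations from group means ran from -0.42 to 0.35, with 6 of 14 mice above 0.1. Run and home cage mice share only a number: deviations correlated over 0.1 in 3 of 14 library pairs, 7 in each fraction.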

Additional observations from a re-analysis of the deposited data

Results flagged for a closer look

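Within a group of 7 libraries, 3 values of the 6 genes stood far from the nearest of the others by Dixon's test at the 95% level; chance flags about 1 in 20 groups, and every level and every TRAP over lysate ratio was tested. Cyr61 had 21.5 CPM in the run TRAP library labelled Female2 of cohort 2, against 10.3 CPM in the next highest run TRAP library. This mouse is 1 of the 2 whose Y-linked counts go against their labels. Leaving out both of these mice gave a run over home cage log2 fold of 1.30 for Cyr61 in TRAP, against 1.46 with them.

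Cyr61 also had 7.75 CPM in the home cage TRAP library Male1 of cohort 2, against 4.06 CPM in the next highest home cage TRAP library. The third value was a log2 TRAP over lysate ratio of 0.0558 for Ier5 in the run mouse labelled Male1 of cohort 2, the other of the 2 mice, while the remaining 6 run mice lay between 0.25 and 0.34.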

How the results depend on the processing

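The count of members higher in TRAP than lysate, 3 of 6 in each condition, was 1 in run mice and 0 in home cage mice with library totals, 1 in each without a cohort term, 1 in each with cohort 1 alone, and 1 in run mice without the 2 mice whose Y-linked counts go against their labels. The 3 of the main fit include Apold1, which was chosen from these data. Over all genes 5083 of 16880 were higher in run mice in the main fit and 5177 in home cage mice. These were 3387 and 3655 with library totals and 4034 and 4083 without a cohort term. Cohort 1 alone had 4418 and 4502 of 16543, and run mice without the 2 mice 4605 of 17163. With 1 mouse left out at a time the count of members ran from 2 to 3 in each condition. The cohort 1 and reduced sets hold fewer mice; for the other settings the cause was not tested. The lysate count was 0 and became 1 with DESeq2 (Cyr61), and it was 0 with any 1 mouse left out. Medians of the 6 ran from -0.05 to 0.11 for run over home cage in TRAP and from -0.02 to 0.12 for the difference between fractions with 1 mouse left out.

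Signs turned only where values were small or with library totals. TRAP over lysate in run mice turned for Cyr61 to -0.35 with library totals, -0.0114 without the 2 mice and -0.0308 with a cohort term for each fraction, and for Ier5 to -0.26 with library totals. In home cage mice it turned to -0.28 for Ier3 and -0.18 for Ier5 with library totals. The lysate value of Ier5, -0.01, became 0.0049 with limma-voom, 0.0141 without a cohort term, 0.0720 in cohort 1 alone, 0.0055 without the 2 mice and 0.0042 with the replicate block, and ran from -0.0716 to 0.0506 with 1 mouse left out. The sex difference of Apold1 in lysate turned to -0.0588 without the 2 mice. Besides the home cage value of Cyr61 over lysate, -0.57 with the replicate block, the block changed no call of a member.

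Of all alternative values of the members 733 kept direction and side of the threshold, 23 lost a call, 12 gained one, 16 turned and 2 moved beyond 1 SD (Apold1 in cohort 2 alone, 0.96 for run over home cage in TRAP and 0.56 for its difference from lysate). For the interaction terms DESeq2 was chosen after seeing the data. With 7 mice a condition the SE of a lysate difference was 0.10 to 0.17 on the log2 scale. What depth limits was not tested; the lowest count of a member was 174, for Cyr61.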
